A study of Drosophila melanogaster with 6 samples.

Results

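Cytochrome P450 genes were followed in proventriculus RNA from Drosophila melanogaster larvae at instar 3, measured on 6 Affymetrix Drosophila 2.0 expression arrays. The family was taken by name: a gene counted where its symbol in the array annotation was Cyp followed by a family number, a subfamily letter and a gene number, and where a gene had several probe sets, the one with the largest average signal was used. This gave 81 of the 11982 genes read by a probe set with a single symbol. Of 85 such symbols in a RefSeq gene table, Cyp12d1-p, Cyp9f3 and the pseudogenes Cyp6a15Psi and Cyp6t2Psi were not among them and are not analysed here as members. The groups were larvae challenged with G418 (2 arrays), unchallenged larvae (2 arrays), F3 unchallenged larvae with past exposure of the F1 generation (1 array) and F3 unchallenged larvae without past exposure (1 array). All 6 arrays came from the strain hairy-gal4 UAS-neoGFP, so every group carried the driver of the hairy gene and the Gal4-dependent neoGFP transgene. G418 is an antibiotic of the aminoglycoside class that poisons cells lacking a neomycin resistance product. Neither dose nor exposure time nor larvae per array is stated in the sources used here. Separate cultures are not stated for the 2 replicates of either group, so p-values rest on variation between these hybridisations alone, part of which may be technical.

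Cytochrome P450 enzymes are haem proteins that insert oxygen into lipids, hormones, plant toxins and drugs. In insects they fall into the CYP2, CYP3, CYP4 and mitochondrial clans: CYP3 members are best known from the breakdown of foreign compounds, CYP4 members from fatty acid and hydrocarbon metabolism, and CYP2 and mitochondrial members from both hormone synthesis and detoxification. Microsomal P450s draw electrons from a reductase and cytochrome b5, mitochondrial ones from a ferredoxin. In fly larvae the midgut, fat body and Malpighian tubules are known as the main sites of detoxifying P450s, and the proventriculus lies at the entrance of the midgut.

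The deposited log2 values had medians of 4.91 to 5.03 per array, and Pearson's r across probe sets was 0.983 between the G418 arrays, 0.972 between the unchallenged arrays and 0.992 between the F3 arrays. The labelled organ was checked against 6 foregut regulators, of which 5 were measured: dve lay between 10.30 and 11.58 and fkh between 8.44 and 10.16 on all arrays. Markers of other tissues differed between arrays. The log2 of the summed signal of 4 measured fat body markers (of 8 listed) was 15.18 and 15.60 in G418-challenged larvae, 15.89 (replicate 1) and 14.56 (replicate 2) in unchallenged larvae, and 13.56 with and 9.76 without past exposure on the F3 arrays. The same sum over 5 of 6 nervous tissue markers reached 10.23 on unchallenged replicate 2, with 6.69 to 7.06 elsewhere. Over 8 salivary gland markers it was 16.81 and 15.90 on the G418 arrays, against 11.04 and 15.22 on unchallenged replicates 1 and 2. In whole-organ RNA, fewer cells of a type and less RNA per cell cannot be told apart.

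The 81 genes covered 20 families and 45 subfamilies, with 37 genes in the CYP3 clan, 32 in CYP4, 8 in the mitochondrial clan and 4 in CYP2. Only Cyp12e1 and Cyp18a1 had more than 1 probe set with a single symbol. Values per array are log2 expression, replicate 1 before replicate 2. In the CYP3 clan the brightest probe sets belonged to Cyp9f2, at 12.13 and 11.96 on the G418 arrays, against 11.93 and 11.38 on the unchallenged arrays, to Cyp9b2 and to Cyp6t1, at 9.73 and 10.44 on the G418 arrays, against 10.44 and 10.41 on the unchallenged arrays. In the CYP4 clan they belonged to Cyp4e2, at 10.71 and 10.99 on the G418 arrays, against 11.27 and 10.82 on the unchallenged arrays, to Cyp4p1, at 10.30 and 10.41 on the G418 arrays, against 10.06 and 9.70 on the unchallenged arrays, and to Cyp4d1. In the mitochondrial clan they were Cyp12c1, Cyp12a4 and Cyp12e1, the last at 9.31 and 9.08 on the G418 arrays, against 8.96 and 8.44 on the unchallenged arrays. In the CYP2 clan they were Cyp304a1, Cyp18a1 and Cyp305a1. Brightness also depends on the probes, so these values do not rank the amounts of RNA. A mean at or above 4.98, the median of all probe sets, was found for 50 members. The others lay below it, where small differences between arrays are compressed.

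**Figure D1:**
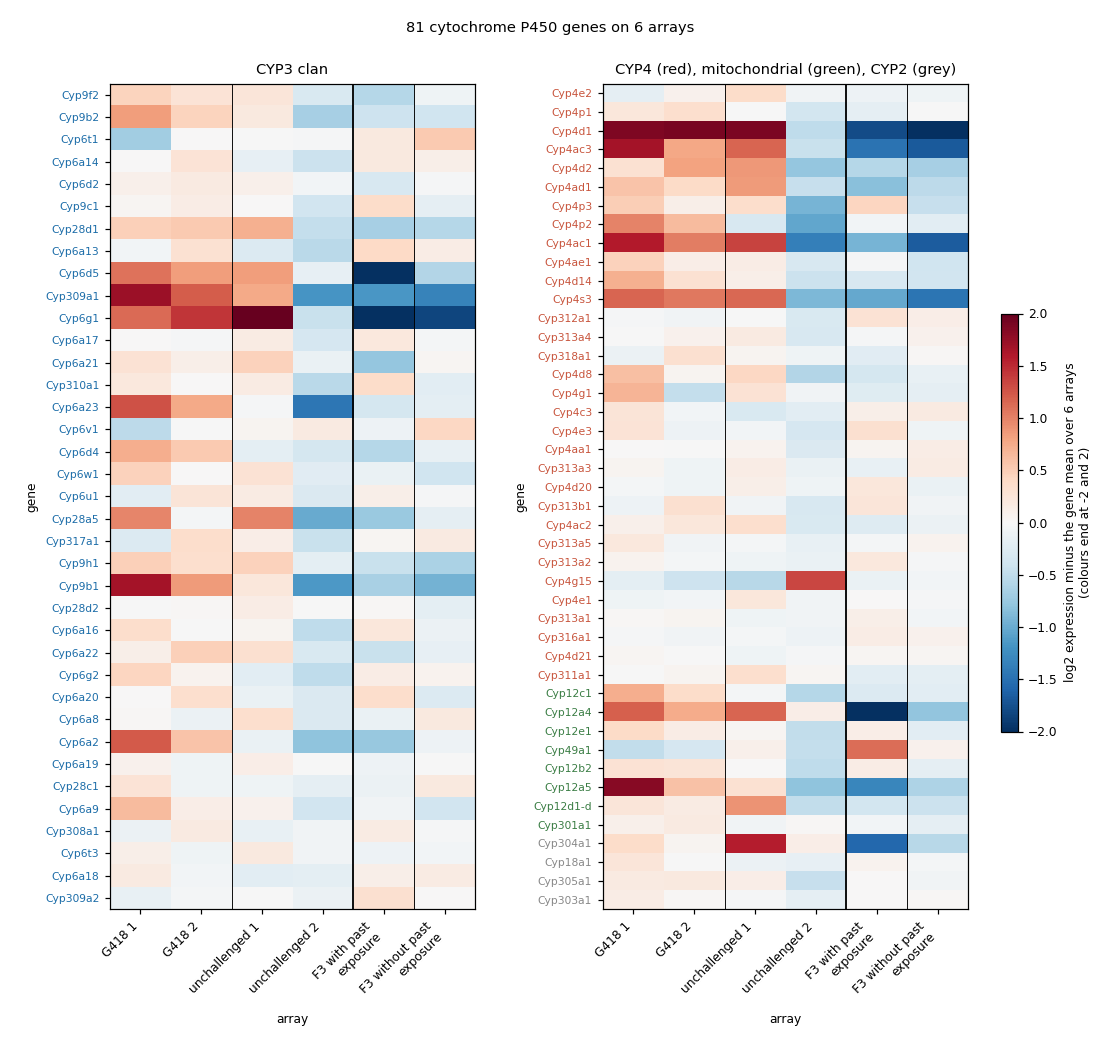
Log2 expression of the 81 P450 genes (rows, named by gene and ordered by mean within each clan) on the 6 arrays (columns), drawn as the difference from the gene's mean over the 6 arrays, with colours ending at -2 and 2. Unchallenged replicate 2 is blue for most genes, and Cyp4d1, Cyp4ac1, Cyp4s3 and Cyp6g1 are red on the G418 arrays and unchallenged replicate 1 and blue on the other 3.

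The first comparison asked how P450 RNAs differed between G418-challenged and unchallenged larvae. Of the 81 genes 64 (79.0%) had a positive log2 change and 17 a negative one, with a median of 0.28, whereas 47.7% of all genes were positive, with a median of -0.02. Both G418 arrays lay above both unchallenged arrays for 30 members (37.0%), against 18.3% of all genes, and below both for 1 member (1.23%), against 20.1% of all genes. No member passed the test: limma called 0 of 81, as it called 0% of the 18769 probe sets, and the lowest adjusted p of a member was 0.788. In simulated data the same fit called 0 of 50 changes of log2 size 1. At an unadjusted p under 0.05 there were 7 members (8.64%), against 4.26% of all genes. Without unchallenged replicate 2 the family's median was 0.04, with 42 members (51.9%) positive, against 46.5% of all genes, and 39 negative. Without unchallenged replicate 1 it was 0.47, with 75 members (92.6%) positive, against 49.7% of all genes, and 6 negative. With unchallenged replicate 2 left out, the G418 arrays lay below unchallenged replicate 1 for 25 members (30.9%), against 32.8% of all genes. The scarcity of lower members was thus not seen without unchallenged replicate 2. Both G418 arrays lay above unchallenged replicate 1 for 32 members (39.5%), against 27.7% of all genes. Marker lists also differed between the groups, with 0 of their genes called. All 8 salivary gland markers were positive (median 3.34), 7 of them with both G418 arrays above both unchallenged arrays, against 18.3% of all genes. The 5 foregut regulators (median -0.53) and 5 haemocyte markers (median -0.59) were negative, as were 4 of 5 nervous tissue markers (median -0.78). Medians were 0.14 for 5 midgut markers (2.92 for Mal-A1), 0.13 for 4 fat body, 0.18 for 4 oenocyte and -0.08 for 2 Malpighian tubule markers. Their part in the P450 values was not tested.

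**Figure D2:**
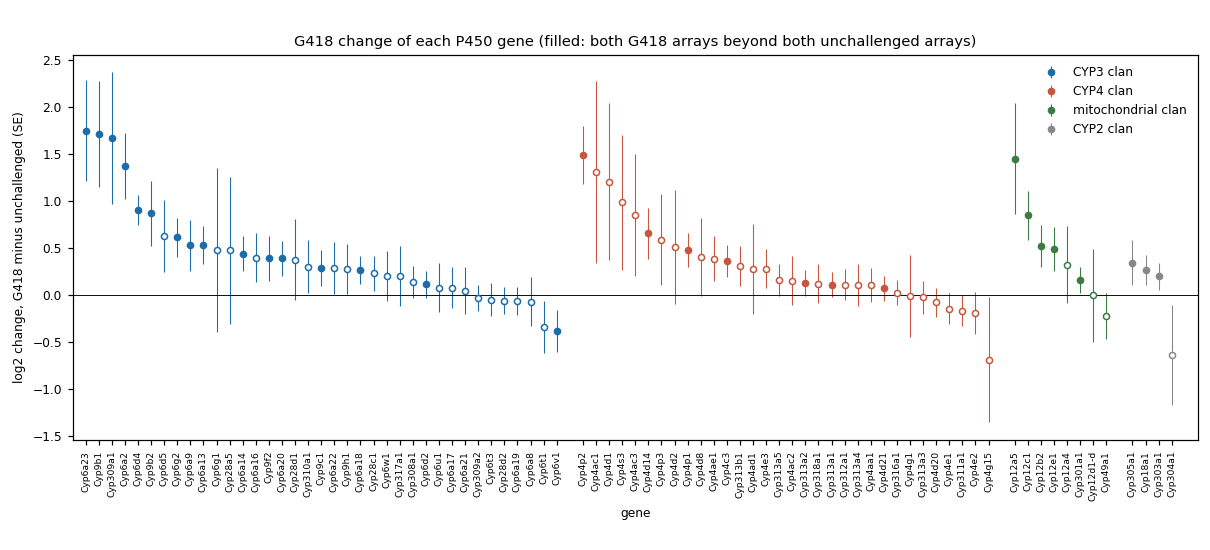
Log2 change of each P450 gene, G418 minus unchallenged (y axis, 2 arrays each, bars are the SE of limma), sorted within clans along the x axis. Filled points mark the 31 genes whose G418 arrays both lie beyond both unchallenged arrays, 30 of them above 0.

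The 10 genes with the largest positive values among those with separate groups came from all clans but CYP2. Cyp6a23, Cyp6a2 and Cyp6d4 belong to the Cyp6a and Cyp6d subfamilies of the CYP3 clan. Cyp6a23 was at 9.27 and 8.76 on the G418 arrays, against 7.98 and 6.56 on the unchallenged arrays, a log2 change of 1.75 ± 0.54 (SE), or 3.36-fold. Cyp6a2, known from resistance to DDT, was at 5.83 and 5.17 on the G418 arrays, against 4.46 and 3.79 on the unchallenged arrays, which is 2.59-fold (1.37 ± 0.35). Cyp6d4 was at 8.55 and 8.34 on the G418 arrays, against 7.61 and 7.46 on the unchallenged arrays, a smaller difference of 1.87-fold (0.90 ± 0.16). Its replicates lay closest together of the 10, and its unadjusted p in limma, 0.00403, was the lowest in the family.

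Cyp9b1 and Cyp9b2 are neighbours in the genome, and both had G418 arrays above unchallenged arrays. Cyp9b1 was at 7.64 and 6.82 on the G418 arrays, against 6.20 and 4.83 on the unchallenged arrays, or 3.28-fold (1.71 ± 0.56). Cyp9b2 was at 11.84 and 11.45 on the G418 arrays, against 11.21 and 10.35 on the unchallenged arrays, or 1.82-fold (0.87 ± 0.35). Cyp309a1 was at 10.66 and 10.15 on the G418 arrays, against 9.70 and 7.78 on the unchallenged arrays, or 3.18-fold (1.67 ± 0.70). Its spread between the unchallenged arrays, 1.36 (SD, n = 2), was wide, and the dim probe set of its neighbour Cyp309a2 was at 3.19 and 3.28 on the G418 arrays, against 3.32 and 3.21 on the unchallenged arrays.

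In the mitochondrial clan Cyp12a5 was at 8.82 and 7.59 on the G418 arrays, against 7.31 and 6.20 on the unchallenged arrays, or 2.73-fold (1.45 ± 0.59). Cyp12c1 was at 11.15 and 10.78 on the G418 arrays, against 10.38 and 9.85 on the unchallenged arrays, or 1.8-fold (0.85 ± 0.26). In the CYP4 clan Cyp4p2 was at 6.82 and 6.47 on the G418 arrays, against 5.51 and 4.79 on the unchallenged arrays, or 2.81-fold (1.49 ± 0.31), and Cyp4d14 at 6.31 and 5.89 on the G418 arrays, against 5.72 and 5.17 on the unchallenged arrays, or 1.58-fold (0.66 ± 0.27). For each of the 10, G418 replicate 1 was the highest of the 4 arrays and unchallenged replicate 2 the lowest. Each had an adjusted p of 0.788 in limma. Cyp6g2, known from the hormone gland next to the brain that makes juvenile hormone, was the only other gene with separate groups and at least 1.5-fold, at 5.24 and 4.88 on the G418 arrays, against 4.60 and 4.29 on the unchallenged arrays.

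The values without unchallenged replicate 2 differed among these genes. Against unchallenged replicate 1 alone, the log2 change was 1.13 for Cyp4p2, 1.04 for Cyp6a2, 0.83 for Cyp6d4 and 0.58 for Cyp12c1. It was smaller by over 1.5 times than with all arrays for Cyp6a23 (1.04), Cyp9b1 (1.03), Cyp12a5 (0.90), Cyp309a1 (0.70), Cyp9b2 (0.44) and Cyp4d14 (0.38). Without G418 replicate 1 the log2 change of Cyp12a5 was 0.83. With any single array left out, 39 of the 81 members (48.1%) kept a positive change in all 4 cases, against 25.7% of all genes, and 3 kept a negative one, against 30.5% of all genes.

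**Figure D3:**
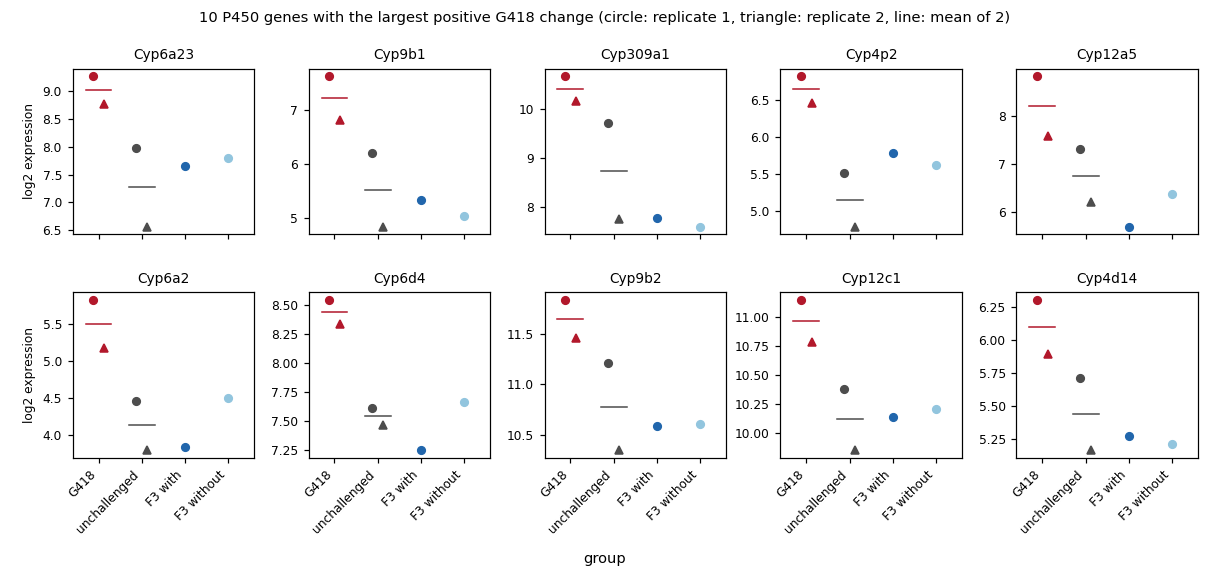
Log2 expression (y axis, scaled per gene) of the 10 P450 genes with the largest positive G418 change among those with separate groups, by group (x axis), with circles for replicate 1, triangles for replicate 2 and lines for the mean of 2 arrays. In each panel both G418 arrays lie above both unchallenged arrays, and for Cyp4p2 both F3 arrays lie between the 2 groups.

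A further 6 genes were at least 1.5-fold higher in the means, but their groups overlapped. Cyp4d1 was at 11.11 and 11.15 on the G418 arrays, against 11.13 and 8.73 on the unchallenged arrays, so both G418 arrays were level with unchallenged replicate 1 and only replicate 2 was low. Cyp4ac1 was at 7.40 and 6.84 on the G418 arrays, against 7.17 and 4.44 on the unchallenged arrays, and Cyp4s3 at 6.75 and 6.64 on the G418 arrays, against 6.73 and 4.69 on the unchallenged arrays, again with replicate 2 as the low array. Cyp4ac3, of the same run of neighbours as Cyp4ac1, was at 8.58 and 7.69 on the G418 arrays, against 8.09 and 6.48 on the unchallenged arrays, Cyp4p3 at 6.56 and 6.18 on the G418 arrays, against 6.42 and 5.13 on the unchallenged arrays and Cyp6d5 at 10.19 and 9.93 on the G418 arrays, against 9.94 and 8.94 on the unchallenged arrays. The log2 changes of Cyp4d1 and Cyp4s3 were 2.40 and 2.01 with unchallenged replicate 1 left out. Without unchallenged replicate 2 they were 0.01 and -0.04.

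The unchallenged arrays differed widely from each other in this family. On unchallenged replicate 2, 73 of 81 members (90.1%) were lower than on replicate 1, against 49.5% of all genes, with a median difference of -0.47 for the family and 0.0037 for all genes. At least 2-fold differences between these arrays were seen for 19 members (23.5%), 18 of them lower on replicate 2, against 8.56% of all genes. The G418 arrays differed at least 2-fold at 3 members (3.70%), against 4% of all genes, with a median of -0.14 (replicate 2 minus 1). The 5 members with the largest unchallenged differences were Cyp4ac1 (-2.73 on the log2 scale), Cyp6g1 (-2.48), Cyp4d1 (-2.39), Cyp4s3 (-2.04) and Cyp28a5 (-1.99). Cyp6g1, the best known P450 of insecticide resistance in this species, was at 9.73 and 10.01 on the G418 arrays, against 10.63 and 8.15 on the unchallenged arrays. Cyp28a5 was at 8.29 and 7.27 on the G418 arrays, against 8.29 and 6.31 on the unchallenged arrays.

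Marker lists moved between the same 2 arrays. Fat body markers had a median difference (replicate 2 minus 1) of -1.38 over the 4 measured. The medians were -0.93 for 5 haemocyte markers, -0.60 for 5 of 7 midgut markers, -0.11 for 4 oenocyte markers and -0.43 for 2 of 5 Malpighian tubule markers, and they were 2.54 for nervous tissue and 3.83 for salivary gland markers. Cyp4g15, known from the larval brain, was among the members that were higher on unchallenged replicate 2, and was at 3.67 and 3.45 on the G418 arrays, against 3.31 and 5.19 on the unchallenged arrays. The part of these tissues in the P450 values was not tested.

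**Figure D4:**
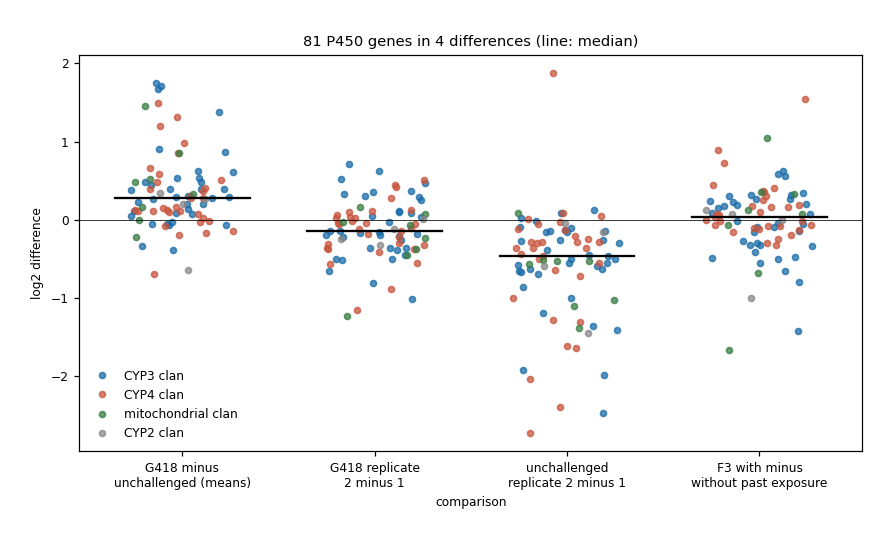
Log2 differences (y axis) of the 81 P450 genes, 1 point per gene coloured by clan and a line at the median, for G418 minus unchallenged, between the 2 G418 arrays, between the 2 unchallenged arrays, and between the F3 arrays. The medians are 0.28, -0.14, -0.47 and 0.03, and the lowest points of all lie between the unchallenged arrays.

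By clan, the median log2 change with G418 was 0.29 in CYP3 (30 of 37 positive), 0.16 in CYP4 (25 of 32), 0.41 in the mitochondrial clan (6 of 8) and 0.23 in CYP2 (3 of 4). Without unchallenged replicate 2 these medians were 0.04, -0.02, 0.21 and 0.09. Members with both G418 arrays above both unchallenged arrays numbered 15 in CYP3 (40.5%), 7 in CYP4 (21.9%), 5 in the mitochondrial clan (62.5%) and 3 in CYP2 (75%), against 18.3% of all genes, so the share in CYP4 was near that of all genes. In CYP2 those 3 were Cyp18a1, Cyp305a1 and Cyp303a1, with changes of 0.26, 0.35 and 0.20. Without unchallenged replicate 2 the change was 0.049 for Cyp305a1 and 0.12 for Cyp303a1. That of Cyp18a1 was 0.14 both without G418 replicate 1 and as the mean of its probe sets. Cyp304a1 was at 7.81 and 7.48 on the G418 arrays, against 9.01 and 7.56 on the unchallenged arrays. The single member with both G418 arrays below was Cyp6v1, at 7.36 and 7.88 on the G418 arrays, against 7.94 and 8.07 on the unchallenged arrays. A probe set shared by Cyp6v1 and shn overlapped between the groups. It was at 7.89 and 8.81 on the G418 arrays, against 8.44 and 8.46 on the unchallenged arrays.

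The Cyp6a subfamily was the largest, with 13 members (median 0.39), of which 11 (84.6%) were positive, against 47.7% of all genes. Both G418 arrays lay above both unchallenged arrays for 7 members (53.8%), against 18.3% of all genes. Besides Cyp6a23 and Cyp6a2 these were Cyp6a13, Cyp6a9, Cyp6a14, Cyp6a20 and Cyp6a18, with log2 changes of 0.53, 0.53, 0.44, 0.39 and 0.26. Without unchallenged replicate 2 these changes were 0.40, 0.30, 0.31, 0.31 and 0.28, in the same order. Cyp6a20 is known from male aggression. The neighbours of Cyp6a23 did not share its size: Cyp6a17, known from temperature preference, was at 8.50 and 8.47 on the G418 arrays, against 8.66 and 8.16 on the unchallenged arrays, and Cyp6a22 at 5.39 and 5.74 on the G418 arrays, against 5.59 and 4.96 on the unchallenged arrays. Probes of such close relatives may not fully separate their RNAs.

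P450 genes lie in groups along the chromosomes, and 43 members formed 15 runs in which at most 1 other protein-coding gene stood between neighbours. All members were positive with G418 in 8 of the 15 runs, where 64 of all 81 members (79.0%) were positive. Most runs were short, so this count does not show that neighbours changed together. The longest run held 9 genes, Cyp6a22, Cyp6a17, Cyp6a23, Cyp6a19, Cyp6a9, Cyp6a20, Cyp6a21, Cyp6a8 and Cyp317a1, whose changes reached from -0.07 to 1.75. In the run of Cyp4p2, Cyp4p1 and Cyp4p3 the changes were 1.49, 0.48 and 0.59. In the pair Cyp12a5 and Cyp12a4 they were 1.45 and 0.32. Among Cyp6g1, Cyp6g2 and Cyp6t3 they were 0.48, 0.61 and -0.05, and that of Cyp6g1 was -0.76 without unchallenged replicate 2.

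Other genes named here for insecticide resistance did not separate the groups, and such genes were not listed in full. Cyp6a8 was at 4.75 and 4.60 on the G418 arrays, against 5.06 and 4.43 on the unchallenged arrays, and Cyp6w1 at 8.17 and 7.71 on the G418 arrays, against 7.99 and 7.49 on the unchallenged arrays. Cyp12a4, known from resistance to lufenuron, was at 10.20 and 9.75 on the G418 arrays, against 10.17 and 9.14 on the unchallenged arrays. The Cyp12d1 locus holds close copies, and a probe set shared by Cyp12d1-d and Cyp12d1-p was at 9.58 and 9.47 on the G418 arrays, against 9.93 and 8.59 on the unchallenged arrays. The probe set of Cyp12d1-d alone was at 4.48 and 4.41 on the G418 arrays, against 5.14 and 3.76 on the unchallenged arrays.

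Members with roles in hormones, cuticle and bristles gave low signals. Cyp18a1, which inactivates ecdysteroids, was at 5.36 and 5.11 on the G418 arrays, against 4.99 and 4.94 on the unchallenged arrays, a log2 change of 0.26 ± 0.16 (95% interval -0.17 to 0.70). Cyp301a1, needed for adult cuticle, was at 4.26 and 4.32 on the G418 arrays, against 4.09 and 4.18 on the unchallenged arrays, and Cyp303a1, needed for sensory bristles, at 3.56 and 3.44 on the G418 arrays, against 3.38 and 3.23 on the unchallenged arrays. Cyp4g1, the oenocyte enzyme that completes cuticular hydrocarbons, was at 5.62 and 4.47 on the G418 arrays, against 5.24 and 4.88 on the unchallenged arrays. Its G418 arrays lay on either side of the unchallenged ones. Cyp6t3, known from the ecdysone-producing gland, was at 4.19 and 3.99 on the G418 arrays, against 4.28 and 4.0 on the unchallenged arrays, Cyp4aa1 at 4.28 and 4.26 on the G418 arrays, against 4.34 and 3.99 on the unchallenged arrays and Cyp4d20 at 3.91 and 3.87 on the G418 arrays, against 4.08 and 3.87 on the unchallenged arrays.

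Ecdysteroid synthesis uses P450s that carry names of their own and so were no members, and 7 of 8 listed genes of that pathway were measured, 0 of them called. For spok, sad and nvd the high arrays were 1 of each group. The P450 spok was at 7.39 and 3.42 on the G418 arrays, against 3.19 and 8.22 on the unchallenged arrays, so it was high on G418 replicate 1 and unchallenged replicate 2 and near the lowest signals elsewhere. The P450 sad was at 7.09 and 4.64 on the G418 arrays, against 4.43 and 7.23 on the unchallenged arrays, with the same arrays high. The oxygenase nvd, which acts on cholesterol at the start of the pathway, was at 4.88 and 3.44 on the G418 arrays, against 3.47 and 5.25 on the unchallenged arrays. These genes are known from the prothoracic gland. The peripheral enzyme shd, which makes the active hormone, was at 8.47 and 8.75 on the G418 arrays, against 8.63 and 7.53 on the unchallenged arrays, while the log2 changes of dib, spo and sro were -0.06, 0.11 and 0.03.

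Of 8 genes listed as electron donors or haem enzymes 5 were measured. Cpr, dare and Ho were not, so the reductase of microsomal P450s is not among the 5. All 5 had a positive change, against 47.7% of all genes, with a median of 0.33 and 0 of them called. Alas, the first enzyme of haem synthesis, was at 10.05 and 9.61 on the G418 arrays, against 9.04 and 9.35 on the unchallenged arrays (0.63 ± 0.23). Cyt-b5, the electron carrier of microsomal P450s, was at 11.76 and 11.51 on the G418 arrays, against 11.35 and 11.27 on the unchallenged arrays, and the ferredoxin Fdx2 at 9.37 and 9.14 on the G418 arrays, against 9.11 and 8.73 on the unchallenged arrays. Those 3 had both G418 arrays above both unchallenged arrays, as did 18.3% of all genes. Without unchallenged replicate 2 the log2 change was 0.78 for Alas, 0.29 for Cyt-b5 and 0.15 for Fdx2. Cyt-b5-r, whose role as an electron donor was not checked here, was at 7.77 and 7.33 on the G418 arrays, against 7.56 and 4.26 on the unchallenged arrays. In F3 it was at 3.93 with past exposure and 4.12 without. Like Cyp4d1, it was high on the G418 arrays and unchallenged replicate 1 and low on the other arrays. Fdx1 had a log2 change of 0.02.

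Among 9 listed regulators of detoxification genes 4 were positive and 5 negative, 0 of them called. The factor cnc, which drives antioxidant genes, was at 10.99 and 11.28 on the G418 arrays, against 11.17 and 11.26 on the unchallenged arrays, and its partner maf-S had a log2 change of 0.02. Keap1, which holds cnc in check, was at 7.04 and 7.25 on the G418 arrays, against 7.41 and 7.46 on the unchallenged arrays, and tgo, the shared partner of PAS domain factors, at 8.58 and 9.18 on the G418 arrays, against 9.35 and 9.76 on the unchallenged arrays. The log2 change was 0.24 for the xenobiotic receptor Hr96, 0.07 for the ecdysone receptor EcR, -0.26 for its partner usp, 0.07 for Hnf4 and -0.39 for ss.

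The second comparison set the F3 array with past exposure of the F1 generation against the F3 array without it, with 1 array each and so no test and no replicate check. Of the 81 members 41 (50.6%) were higher with past exposure and 40 lower, against 53.2% of all genes higher, and the median log2 difference was 0.03, against 0.02 over all genes. At least 2-fold differences were found for 5 members (6.17%), 2 higher and 3 lower, against 1.54% of all genes. This count was below the 19 members that differed 2-fold between the unchallenged arrays and above the 3 between the G418 arrays.

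Cyp4d1 had the largest positive difference, at 7.46 with past exposure and 5.91 without, or 2.93-fold higher. Cyp49a1, of the mitochondrial clan, was at 8.30 with past exposure and 7.26 without, or 2.06-fold higher, and its array with past exposure was the highest of all 6. Cyp4p3 was at 6.50 with past exposure and 5.61 without, Cyp4ac1 at 4.89 with past exposure and 4.16 without and Cyp6a20 at 5.15 with past exposure and 4.53 without. For Cyp4d1 both F3 values lay below those of the other 4 arrays, whereas for Cyp4ac1 unchallenged replicate 2, at 4.44, lay between the F3 values.

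The lower genes were led by Cyp12a4, at 6.54 with past exposure and 8.21 without, or 3.19-fold lower, and its neighbour Cyp12a5 was at 5.69 with past exposure and 6.38 without, or 1.61-fold lower. Cyp6d5 was at 7.09 with past exposure and 8.51 without, or 2.68-fold lower, and Cyp304a1 at 5.87 with past exposure and 6.87 without, or 2-fold lower, at the edge of the 2-fold threshold. Cyp6a21 was at 7.42 with past exposure and 8.22 without, and Cyp6a2 at 3.84 with past exposure and 4.49 without. Cyp6g1 was at 6.27 with past exposure and 6.75 without, a difference of -0.48 on the log2 scale. Of the 10 genes with the largest G418 values, Cyp12a5 and Cyp6a2 were the only ones at least 1.5-fold different between the F3 arrays, both lower with past exposure.

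Marker lists differed between the F3 arrays as well. The Malpighian tubule genes Irk3, a potassium channel gene, and salt were at 4.39 and 4.48 with past exposure, against 7.39 and 6.98 without it, and on the other 4 arrays both lay at or below 4.80. Midgut markers were lower with past exposure for 5 of 5 measured genes, with alphaTry at 11.49 with past exposure and 12.81 without. Fat body markers were higher for 4 of 4, with a median difference of 3.73, and haemocyte markers for 5 of 5, with a median of 0.90. The part of these tissues in the P450 differences was not tested.

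Both F3 arrays lay below all 4 other arrays for 11 members (13.6%), against 7.13% of all genes. They were Cyp304a1, Cyp28d1, Cyp6d5, Cyp6g1, Cyp9h1, Cyp4d1, Cyp4ac3, Cyp4ad1, Cyp4s3, Cyp311a1 and Cyp12a4. Cyp28d1, for example, was at 8.76 with past exposure and 8.85 without in F3, and at 9.89 and 9.94 on the G418 arrays, against 10.14 and 8.95 on the unchallenged arrays. On the same arrays the log2 summed signal of midgut markers was 14.84 with and 15.47 without past exposure, against 15.57 to 15.99 on the other 4 arrays, and that of fat body markers was 13.56 and 9.76, against 14.56 to 15.89. Their part in these P450 values was not tested. Generation and any difference in how the F3 arrays were prepared cannot be told apart.

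The 42 members not chosen by the naming rule had log2 changes with G418 from -0.69 to 0.85, with 34 positive, and F3 differences from -0.51 to 0.58. Among the bright ones Cyp6d2 was at 9.92 and 10.003 on the G418 arrays, against 9.92 and 9.77 on the unchallenged arrays, Cyp9c1 at 9.48 and 9.59 on the G418 arrays, against 9.44 and 9.05 on the unchallenged arrays and Cyp12b2 at 7.32 and 7.30 on the G418 arrays, against 7.05 and 6.53 on the unchallenged arrays. The 5 measured genes of the Cyp313a subfamily, with means of at most 5.39, had changes from -0.03 to 0.16. Cyp4d21 was at 3.20 and 3.14 on the G418 arrays, against 3.08 and 3.13 on the unchallenged arrays, and Cyp311a1 gave the dimmest signal of the family on both F3 arrays, at 2.84 with past exposure and 2.84 without.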

How the data were processed

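Proventriculus RNA was measured on 6 arrays. The authors deposited log2 expression values from RMA, and the submitters' processing notes name Affymetrix Expression Console. RMA corrects background, normalizes between arrays, summarises probe sets and compresses differences between dim ones. No source used here gives a software version or says whether the F3 arrays were normalized with the others. Precision is limited by the number of arrays.

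Of 18952 probe sets, 183 controls were left out and 18769 tested. Symbols came from the array annotation, updated through the RefSeq gene table (Release 6): 13647 probe sets had 1 symbol, 402 several and 4720 none here. Where several probe sets named 1 gene, the one brightest on average was kept.

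The G418 contrast was fitted with limma 3.58.1 in R 4.3.3 (lmFit, eBayes; Benjamini-Hochberg over 18769 probe sets, threshold 0.05). An exact permutation test of 2 against 2 cannot go below 0.333. Every SE, interval and adjusted p is limma's. F3 arrays were not tested. The P450 genes, clans and gene lists were chosen with earlier results of these data known, so members were described by counts and medians beside all genes.

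Members to be named with values were first the 3 brightest per clan. Next came up to 10 per direction with the largest G418 change (at least 1.5-fold, groups separate). Up to 10 per direction with the largest F3 difference (at least 1.5-fold) were added. The 5 members that differed most between unchallenged arrays and members with known roles were also chosen. For many of these only part of the arrays is printed, and for Cyp305a1 only log2 changes. Other genes were named after their values were seen. Sequences are not used here.

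The fit was tested on simulated data with 50 changed probe sets per size. It called 0 of 50 at a log2 change of 1, 36 at 2, 46 at 4 and 50 at 6, with 9 false calls. The simulated noise was independent between probe sets, without differences that many genes of an array share. Its counts may therefore not carry over to these arrays. The salivary gland marker Sgs4, with a log2 change of 4.26, had an adjusted p of 0.788 in limma. The largest P450 change was 1.75, so 0 calls in the family do not show that no member changed. Alternatives were a block for the replicate number, an intensity trend, a signal filter, other normalizations, other probe set and symbol rules, other thresholds and leaving out each array in turn.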

Additional observations from a re-analysis of the deposited data

How the results depend on the processing

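The SD between replicates, 0.34 for the family's median, exceeded that median, so staying within it says nothing about stability. The labels do not say whether the replicate numbers pair arrays. Across probe sets, the differences between replicates of the G418 and the unchallenged group correlated at 0.315, for which the cause was not tested. With the replicate number as a block limma called 0 probe sets and 0 P450 genes. At an unadjusted p under 0.05 the block gave 2187 probe sets and 16 P450 genes, against 664 and 7 without it. An intensity trend in the variance prior gave 1 call. Leaving out 1 array gave 0 to 251 calls over all probe sets, with 251 without unchallenged replicate 1, and 0 to 2 P450 calls. The lone array of a group is then assumed to vary like the other group. Members with G418 arrays above then numbered 32 to 66 (39.5% to 81.5%, against 27.7% to 39.3% of all genes), and those below 2 to 25 (2.47% to 30.9%, against 29.8% to 41.5%). Both extremes came from leaving out an unchallenged array. With only the brighter probe sets kept (mean not under the median), and so fewer members, 18 lay above, and the CYP2 medians were -0.19 with G418 and -0.44 in F3. Quantile normalization put 7 members below, for which the cause was not tested. A 1.5-fold threshold in F3 took in 11 members.

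Of 365 alternative values of 55 results on single genes, 337 counted as the same, 26 reversed and the rest changed side of the threshold. G418 values counted as the same by direction and, where fitted, side of the threshold, and F3 values by lying within the SD between replicates. The block and the signal filter leave each log2 change as it was, and median centring shifts all genes alike. The count is therefore no measure of stability. Cyp4g1 was at 0.016 after quantile normalization. With 1 array left out, G418 changes reached both signs, with fewer arrays, for Cyp304a1 (-1.36 to 0.082), Cyp6t1 (-0.69 to 0.016), Cyp6g1 (-0.76 to 1.72), Cyp6a21 (-0.25 to 0.34), Cyp6w1 (-0.049 to 0.45) and Cyp28a5 (-0.52 to 1.47). The same held for Cyp6a8 (-0.39 to 0.24), Cyp6t3 (-0.19 to 0.089), Cyp4e2 (-0.42 to 0.028), Cyp4p3 (-0.056 to 1.23), Cyp4ac1 (-0.056 to 2.67) and Cyp4s3 (-0.036 to 2.01). It held for Cyp4g1 (-0.59 to 0.56), Cyp4aa1 (-0.075 to 0.28), Cyp4d20 (-0.18 to 0.023), Cyp12a4 (-0.19 to 0.84), Cyp49a1 (-0.51 to 0.064) and Cyp12d1-d (-0.69 to 0.69). Averaging the probe sets of each gene was not run for calls. With 2 arrays per group, simulated log2 changes of 1 were not called, and dim members limit further what can be detected.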
